A study of Mus musculus with 24 samples.

Results

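The comparison of Ado KO cells with control cells after 6 h of TNF is described here. It set 4 libraries (Ado KO) against 4 libraries (control), chosen by their genotype and treatment labels, out of 24 libraries in all. The cells were MC38, a mouse tumour line grown in serum-supplemented medium and widely used as a colon carcinoma model. The Ado KO group held 2 libraries with Ado guide 1 and 2 with Ado guide 2, and the control group held 2 libraries with control guide 1 and 2 with control guide 2. The other 16 libraries, from the same 4 guide populations untreated or given TNF for 1 h, entered the shared fit and are quoted for the same genes. A library called 2-1 carried the second guide of its genotype and was the first replicate with it. Whether a guide population was a pool or 1 clone is not given in the sources used here, and neither is the way in which the 2 libraries of a population were replicated, so the p-values rest on the spread among these libraries, part of which may be technical.

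Ado encodes an enzyme that adds oxygen to the thiol of cysteamine and to the N-terminal cysteine of some proteins, a step that marks those proteins for the Arg/N-degron route of degradation. TNF acts through a receptor complex of TRADD, RIPK1, TRAF2 and cIAP proteins that switches on NF-kB and MAP kinases, and by the later hours target genes include chemokines, adhesion molecules and the inhibitors that close the loop. Interferon-stimulated genes form another late programme, transcribed when a protein complex that contains IRF9 binds an interferon-stimulated response element. Small nucleolar RNAs, most of them cut from the introns of host genes, guide the chemical modification or the cleavage of ribosomal RNA in the nucleolus.

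The deposited levels were log2 CPM (counts scaled to 1 total per library, on a log2 scale) whose highest and lowest values were the same in every library, and 13272 of 15390 genes passed the filter on low values. Depth was not stated, and an estimate from the spacing of low values gave 4820000 to 5760000 tags per Ado KO library against 4010000 to 5130000 per control library. Libraries correlated across genes at 0.962 to 0.972 between the genotypes and at 0.965 to 0.975 between libraries of 1 guide population. Of 16 colon epithelial markers, Krt8, Krt18, Cdh1 and Tjp1 were in the table, and the first 3 of these did not exceed 0.64 log2 CPM in any of the 8 libraries. Tjp1 was higher, at 2.94 to 3.50 log2 CPM in Ado KO libraries and 2.05 to 3.39 in control libraries. Apart from Tjp1, these libraries carried little of this list. Summed levels of the immune, endothelial and fibroblast marker lists overlapped between the genotypes, with exact permutation p from 0.257 to 0.886.

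Ado itself was at 5.43, 5.37, 5.00 and 5.38 log2 CPM in Ado KO libraries 1-1, 1-2, 2-1 and 2-2, against 5.10, 5.01, 5.19 and 5.24 in the control libraries. The difference was 0.16 ± 0.11 (log2, SE; adjusted p = 0.63 by limma with Benjamini-Hochberg adjustment). A guide that disrupts the reading frame need not lower the 3' tags of its message, so these levels check neither the label nor the loss of the enzyme.

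At 6 h of TNF, Ado KO cells had higher levels of a block of antiviral interferon-stimulated genes and of the chemokine gene Cxcl10, and lower levels of the cytochrome oxidase subunit gene Cox6a2, the transcription factor gene Sox9, the mitochondrially encoded messages mt-Co1 and mt-Co3 and many small nuclear and nucleolar RNAs. The calls for mt-Co3, for most of the interferon-stimulated genes and for most of the small RNAs depended on single libraries or guide populations, as given below. By limma, 135 genes passed an adjusted p of 0.05, 1.02% of those tested, and are called changed below. Of these, 56 were higher in Ado KO cells (0.422%) and 79 were lower (0.595%). The called higher genes had a median log2 difference of 0.50, with a range of 0.25 to 2.92, and the called lower genes had a median of -0.91, with a range of -0.32 to -2.09. At an unadjusted p under 0.05 there were 1512 genes. The 4 Ado KO libraries did not overlap with the 4 control libraries in 52 of the 56 and 77 of the 79 called genes, and in 1145 of all genes tested, or 8.63%. In bulk RNA, fewer cells of a type and less RNA per cell cannot be told apart.

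Rises and falls in this text are differences of Ado KO from control cells at 6 h, not changes over time. The falls held many small RNA genes. Protein-coding genes, 10733 of the 13272 tested, made up 48 of the 56 called higher and 16 of the 79 called lower, while 50 of the 79 were annotated as small RNA or miRNA genes and 6 more overlapped such a gene. The split also rested on scaling. With each library centred on its median difference, 32 genes were higher and 85 lower. When the 10733 protein-coding genes were normalised again on their own, 25 were higher and 14 lower, and these held 25 of the 48 and 13 of the 16 protein-coding calls. The calls changed with each guide population left out. Without Ado guide 1 there were 7 higher and 30 lower, without Ado guide 2 there were 9 and 22, without control guide 1 there were 34 and 66, and without control guide 2 there were 187 and 135.

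**Figure D1:**
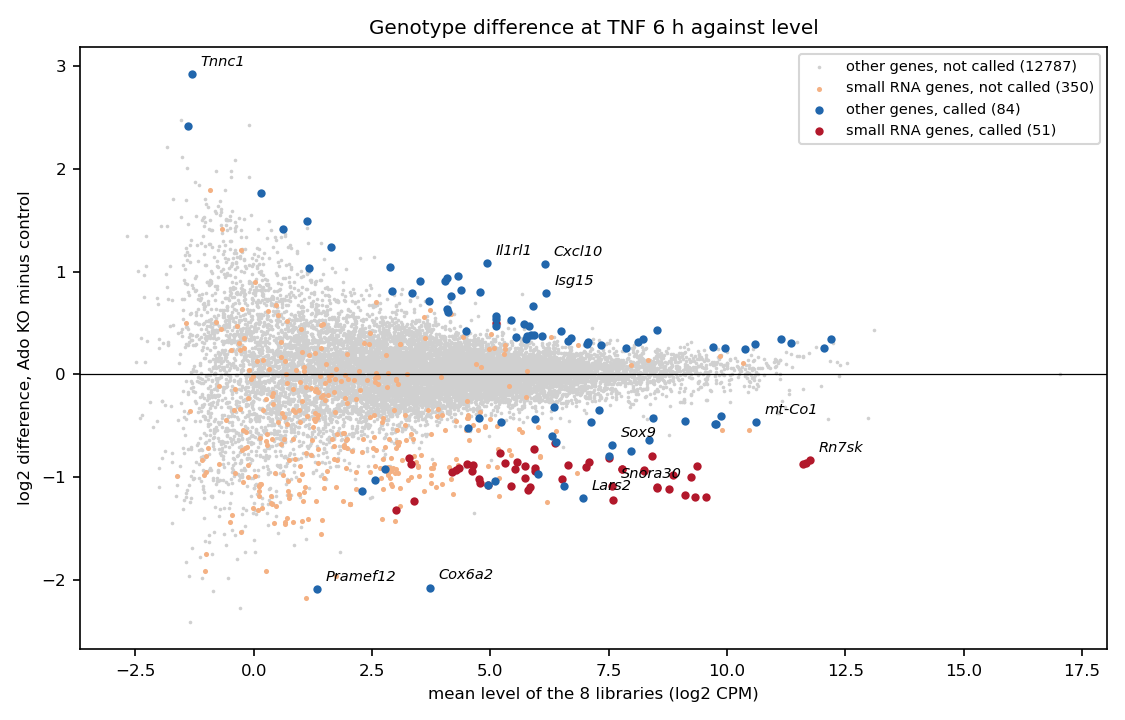
Log2 difference between Ado KO and control at TNF 6 h (vertical axis) against the mean log2 CPM of the 8 libraries (horizontal axis) for each of the 13272 genes tested; blue and red points mark called genes outside and inside the small RNA classes. Called small RNA genes lie below 0 except Mir5136 at 0.50, while the called genes above 0 are mostly protein-coding.

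Interferon-stimulated genes were the list with the most calls among the genes that rose. Of 53 tested members, 8 were called higher and 0 lower, where 0.422% of all genes were called higher, and 46 of the 53 had a positive difference. The list's median log2 difference was 0.32, against 0.02 over all genes tested, and it was 0.27 in untreated cells and 0.19 at 1 h. The 54 members in the table together took 0.164% ± 0.00806 of CPM in Ado KO libraries and 0.135% ± 0.00284 in control libraries (SD, n = 4 each). The Ado KO shares lay between 0.152% and 0.171% and the control shares between 0.131% and 0.138% (exact two-sided permutation p = 0.0286, the smallest that 4 against 4 libraries allow; adjusted over 16 shares, 0.0416). The permutation treated the libraries of a genotype as exchangeable and took no account of their guide populations. The list was chosen with earlier results of these data known, so this p is not independent support for it. The shares of protein-coding genes, pseudogenes and cytosolic ribosomal protein genes, among others, had the same p. Some of the 16 sets lie within others, and the adjusted value, here and for the shares below, rests on these ties.

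Isg15 encodes a ubiquitin-like protein that is conjugated to other proteins during antiviral responses. Its level was 6.64, 6.27, 6.82 and 6.53 log2 CPM in Ado KO libraries, against 5.79, 5.95, 5.86 and 5.50 in control libraries. The groups did not overlap, and the difference was 0.79 ± 0.14 (log2, SE; limma adjusted p = 0.00149). Ifit1, whose protein binds foreign RNA that lacks cap methylation, was at 4.66, 4.81, 4.46 and 4.30 log2 CPM in Ado KO libraries and 3.71, 3.18, 3.98 and 3.60 in control libraries. It was 0.94 ± 0.21 higher in Ado KO cells (log2, SE; limma adjusted p = 0.0205), and every Ado KO library lay above every control library. The tandem relatives Ifit3 and Ifit3b were higher by 0.80 and 0.91 on the same scale. Their near-identical sequences can share tags, so these 2 are not fully separate measurements.

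Rsad2, which encodes viperin, an enzyme that makes a chain-terminating nucleotide, was at 6.37, 6.35, 6.18 and 6.02 log2 CPM in Ado KO libraries and 5.15, 5.40, 5.83 and 5.89 in control libraries. Its difference of 0.66 ± 0.15 (log2, SE; limma adjusted p = 0.0265) came with a gap between the control guides, since the libraries of control guide 1 were the lower pair. Oasl2, of the oligoadenylate synthetase-like family, was higher by 0.91 ± 0.20, and Rtp4, a chaperone of receptor transport that interferon induces, by 0.54 ± 0.14. Irf9, the DNA-binding subunit of the interferon transcription complex, averaged 6.04 ± 0.05 log2 CPM in Ado KO libraries and 5.66 ± 0.15 in control libraries (SD, n = 4 each), a difference of 0.38 ± 0.09 (SE; limma adjusted p = 0.0305). Stat2, whose protein partners IRF9, had a log2 difference of 0.61 and was not called. Irf2, a repressor of the programme, had the lowest difference of the list at -0.39 and was not called.

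**Figure D2:**
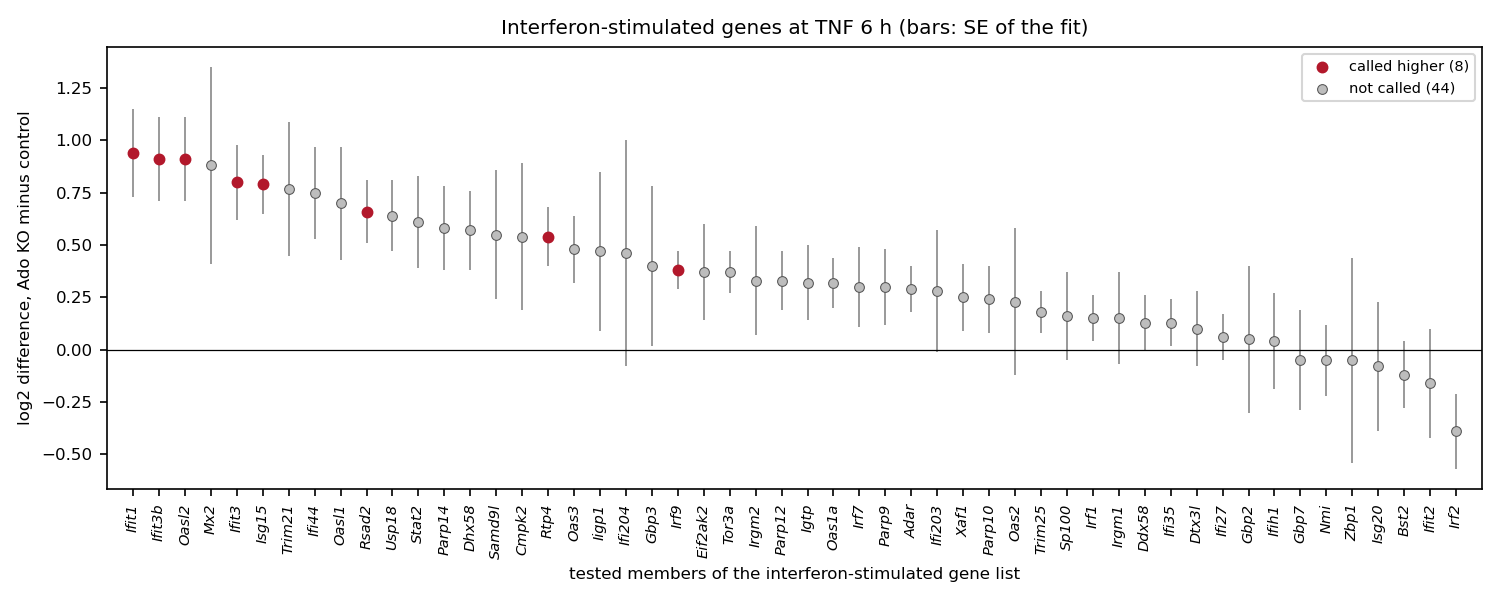
Log2 difference between Ado KO and control at TNF 6 h (vertical axis, bars are the SE of the fit) for 52 of the 53 tested interferon-stimulated genes in order of size; red points are the 8 called higher. The points run from 0.94 for Ifit1 to -0.39 for Irf2, and 45 lie above 0.

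Upstream stretches of 4 of these genes are printed because their promoters hold a core of the interferon-stimulated response element, shown in capitals. The motif searched was GAAA, any 2 bases and GAAA again, on both strands (on the other strand TTTC, 2 bases, TTTC), within the 250 bases before the start of each transcript, in RefSeq promoters of build GRCm38.p6. It was present in 2.98% of the 32851 promoter windows of that table. Among the 8 called interferon-stimulated genes 7 had an entry and 5 of these held it: Isg15, Ifit1, Ifit3, Ifit3b and Rsad2. In Isg15 the 3 overlapping matches begin 78, 72 and 66 bases before the start (chr4:156200850-156200921, minus strand), in Ifit1 matches begin at 104 and 85 bases (chr19:34640760-34640838, plus strand), in Ifit3 at 156 and 122 bases (chr19:34583348-34583441, plus strand) and in Rsad2 at 120 bases (chr12:26456538-26456597, minus strand). The Ifit3b stretch has the same letters as that of Ifit3.
Isg15: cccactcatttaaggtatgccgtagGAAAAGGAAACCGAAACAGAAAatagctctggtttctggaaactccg
Ifit1: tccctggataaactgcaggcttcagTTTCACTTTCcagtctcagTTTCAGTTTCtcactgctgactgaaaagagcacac
Ifit3: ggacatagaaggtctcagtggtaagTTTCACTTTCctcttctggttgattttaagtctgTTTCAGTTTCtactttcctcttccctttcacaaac
Rsad2: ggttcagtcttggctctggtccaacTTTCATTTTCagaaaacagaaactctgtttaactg

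A match describes letters only. Counted by gene, the motif stood upstream of 17 of the 39 tested interferon-stimulated genes with a promoter entry. It stood upstream of 2 of 35 such genes called higher outside that list (Cxcl10 and Tnpo2), 0 of 11 called lower and 3.25% of all tested genes with an entry. A gene was counted if any of its windows held the motif, whereas the 2.98% above is a share of windows.

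Cxcl10 encodes the ligand of CXCR3 that draws activated T cells and is a known target of both TNF and interferon. It was at 6.71, 6.92, 6.56 and 6.56 log2 CPM in Ado KO libraries, against 5.24, 5.41, 5.86 and 5.93 in control libraries. All Ado KO libraries stood above all control libraries, and within the controls guide 1 was lower than guide 2. The difference was 1.07 ± 0.16 (log2, SE), or 2.10-fold (limma adjusted p = 3.5e-04). The difference was 0.53 in untreated cells and 0.55 at TNF 1 h, and the difference at 6 h was not called apart from that in untreated cells (limma adjusted p = 0.623). Upstream of its start (chr5:92349014-92349127, minus strand) the interferon motif begins at 213 bases and the kB-type motif, GGGA and TTCC with 2 bases between them, present in 1.21% of promoter windows, at 159 bases. Both are in capitals, the interferon motif first.
Cxcl10: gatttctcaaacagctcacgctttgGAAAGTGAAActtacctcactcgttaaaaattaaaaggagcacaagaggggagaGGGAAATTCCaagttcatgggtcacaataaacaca

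Ifitm3, an interferon-induced membrane protein gene that blocks viral entry, was named after its values were seen and is not on the list. It averaged 8.73 log2 CPM in Ado KO libraries and 8.30 in control libraries, a difference of 0.43 (limma adjusted p = 2.8e-04). The other chemokine or cytokine call was Il34, an alternative ligand of the CSF1 receptor, which was lower in Ado KO cells: 5.68, 5.65, 5.74 and 5.85 log2 CPM against 5.99, 6.14, 6.32 and 6.25 in control cells. The difference of -0.44 ± 0.10 (log2, SE; limma adjusted p = 0.0244) was joined by -0.58 in untreated cells and -0.45 at 1 h. Of the 13 tested chemokine and cytokine genes Cxcl10 and Il34 were the ones called, where 1.02% of all genes tested were called.

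Il1rl1 encodes ST2, the receptor for the alarmin IL-33. Its levels were 5.37, 5.50, 5.64 and 5.38 log2 CPM in Ado KO libraries, against 4.54, 4.23, 4.66 and 4.14 in control libraries. The groups were well apart, by 1.08 ± 0.17 (log2, SE) or 2.11-fold (limma adjusted p = 4.7e-04). Adra1b, the gene of an alpha-1 adrenergic receptor, was at 4.69, 4.92, 4.63 and 4.91 log2 CPM in Ado KO libraries and 3.89, 3.76, 4.07 and 4.14 in control libraries. This was a difference of 0.82 ± 0.14 (log2, SE; limma adjusted p = 0.00149), with no overlap.

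Matrix, S100 and ERK-responsive genes were among the rises, though few of each list were called. Over all genes tested 0.422% were called higher. Col5a1, a chain of the fibril-regulating type V collagen, was at 4.82, 4.59, 4.84 and 4.95 log2 CPM in Ado KO libraries and 3.55, 3.47, 4.13 and 4.20 in control libraries. It was higher by 0.96 ± 0.19 (log2, SE; limma adjusted p = 0.00584), the control guide 1 libraries being the lowest, and it was the 1 called gene of 25 tested collagen and matrix genes. S100a4 and S100a13, which encode small calcium-binding proteins, were higher by 0.29 and 0.61, the 2 calls among 10 tested S100 genes. Etv1, an ETS factor gene that responds to ERK signalling, was higher by 1.03 ± 0.26, at 1.68 ± 0.39 log2 CPM in Ado KO libraries and 0.66 ± 0.61 in control libraries (SD, n = 4 each).

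The largest rises on the log2 scale were of genes close to the floor of the table at -3.35 log2 CPM. Tnnc1, which encodes a troponin of slow and cardiac muscle, was at -0.18, 0.52, -0.19 and 0.46 log2 CPM in Ado KO libraries, while control libraries 1-1, 1-2 and 2-2 were at the floor and 2-1 was at -1.04. Its fitted difference of 2.92 depends on that floor. Lhx9, a LIM-homeobox gene, was at -0.57 to 0.08 log2 CPM in Ado KO libraries, with 3 control libraries at the floor and the fourth at -0.32, so the groups overlapped. Arhgef10, H2-Ke6 and Zfp61 were higher by 1.76, 1.49 and 1.41, at mean levels of 1.04, 1.86 and 1.31 log2 CPM in Ado KO libraries. Prrx2, a homeobox gene of mesenchyme, and Haus7, a subunit of the augmin complex of the spindle, were higher by 1.04 and 0.81. Gains were small among abundant genes: of 82 cytosolic ribosomal protein genes Rpl41 and Rpl11 were called, at 0.30 and 0.25, and after protein-coding genes were normalised on their own Rpl41 was at 0.20 and called while Rpl11 was at 0.21 and not.

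Cox6a2, the muscle-type isoform of subunit 6a of cytochrome oxidase, had the smallest p of all called genes. It was at 2.67, 2.13, 3.39 and 2.55 log2 CPM in Ado KO libraries, against 4.61, 4.63, 4.84 and 4.98 in control libraries. The highest Ado KO library was far below the lowest control library, and the difference was -2.08 ± 0.21 (log2, SE), or 4.22-fold lower (limma adjusted p = 4.1e-07). The difference was -2.24 in untreated cells and -2.04 at TNF 1 h, and both Ado guides showed it, with means of 2.40 and 2.97 log2 CPM against 4.62 and 4.91 for the control guides. The gene lies on chromosome 7 from 128205435 to 128206387 (GRCm38, minus strand) and Ado on chromosome 10.

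Sox9, a transcription factor gene of intestinal progenitor cells and cartilage, was at 7.15, 7.05, 7.32 and 7.36 log2 CPM in Ado KO libraries, against 7.90, 7.97, 7.92 and 7.87 in control libraries. The control values lay within a narrow band and all Ado KO values fell below it, by 0.69 ± 0.08 on the log2 scale (SE; limma adjusted p = 1.2e-05). Sox9 was also called lower in untreated cells (-0.61) and at 1 h (-0.52), as were Cox6a2, Il34 and Ecm1, which encodes an extracellular matrix protein; these 4 were the genes called lower at all 3 times. Among 16 tested epithelial progenitor and Wnt genes, Il1rl1 was called higher and Sox9 lower.

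Plxna2, a semaphorin receptor, was at 2.14, 2.08, 1.74 and 2.26 log2 CPM in Ado KO libraries, against 3.22, 3.10, 3.16 and 2.83 in control libraries, a difference of -1.03 ± 0.17 (log2, SE; limma adjusted p = 0.00104). Sema5a, a transmembrane semaphorin, was at 2.08, 1.41, 1.44 and 1.97 log2 CPM in Ado KO libraries and 2.86, 3.06, 2.51 and 3.05 in control libraries (-1.14 ± 0.23; adjusted p = 0.00591). For both genes no Ado KO library reached the lowest control library. Htra1, a secreted serine protease, was at 4.09, 4.45, 4.87 and 4.92 log2 CPM in Ado KO libraries and 5.38, 4.95, 6.22 and 5.94 in control libraries, with lower values for guide 1 in both genotypes. Pramef12 fell by 2.09 ± 0.51 on the log2 scale, at 0.30 ± 0.32 log2 CPM in Ado KO libraries and 2.39 ± 0.38 in control libraries (SD, n = 4 each), and lay near the bottom of the scale. Bnip3l, a mitophagy receptor induced by hypoxia, fell by 0.43 ± 0.11 on the log2 scale (adjusted p = 0.0457), the 1 call among 36 hypoxia and glycolysis genes.

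**Figure D3:**
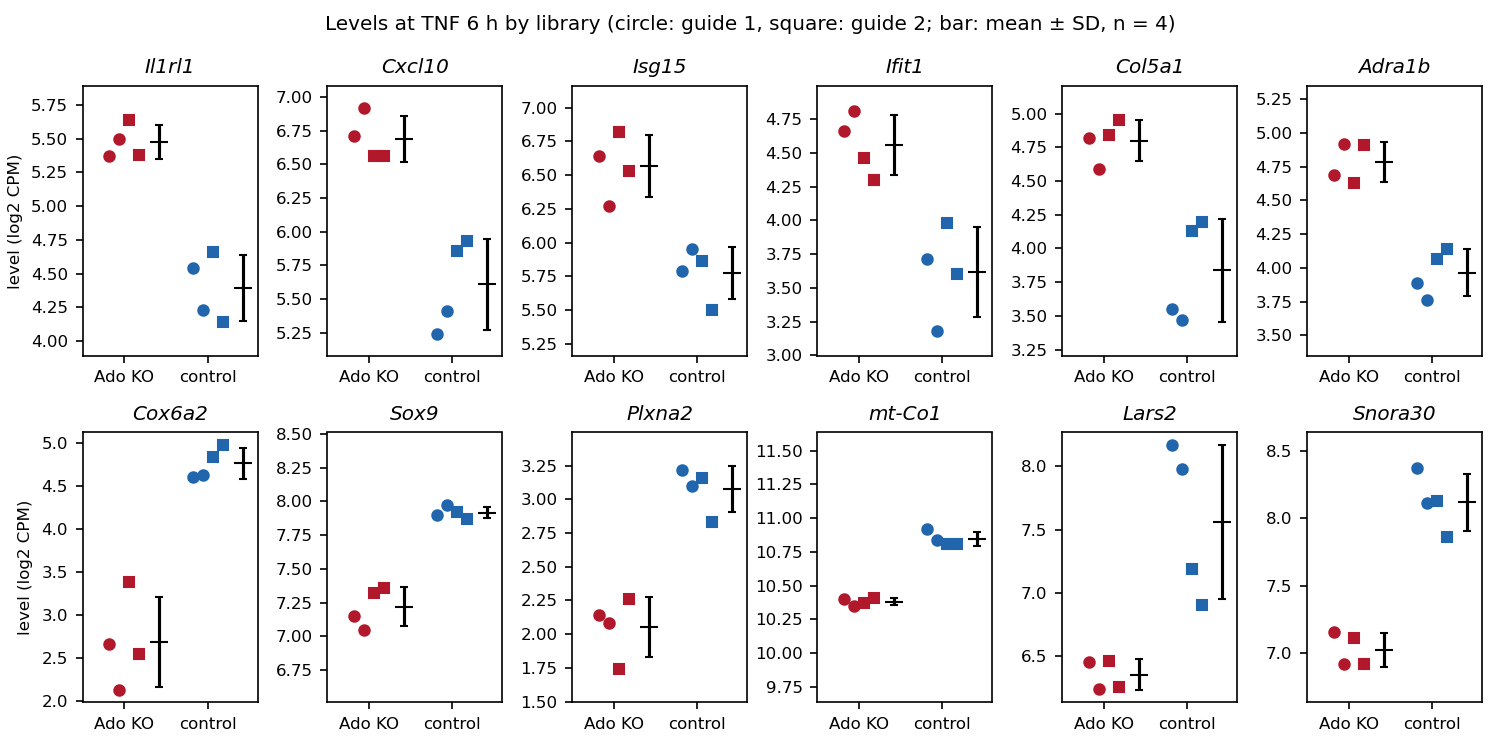
Levels (log2 CPM, vertical axes start above 0 and differ between panels) of 12 genes at TNF 6 h in the 4 Ado KO and 4 control libraries; circles are guide 1, squares guide 2, and the black bars are mean ± SD (n = 4). The groups do not overlap in any of the 12 panels, and in Cxcl10, Col5a1 and Lars2 the control guides stand apart from each other.

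Among messages of the mitochondrial genome, mt-Co1 and mt-Co3, both for cytochrome oxidase subunits, were called lower in Ado KO cells, but the fall was not confined to them. mt-Co1, the catalytic subunit of cytochrome oxidase, was at 10.40, 10.35, 10.37 and 10.41 log2 CPM in Ado KO libraries, against 10.92, 10.84, 10.81 and 10.81 in control libraries. The libraries of each group lay close together and the groups were well apart; the difference was -0.47 ± 0.07 (SE; limma adjusted p = 4.7e-04). mt-Co3, another core subunit, was lower by 0.48 ± 0.11 on the log2 scale (limma adjusted p = 0.0216). It was called in 3 of the 8 fits that left out 1 library, and not without control guide 1, Ado guide 1 or Ado guide 2. Of the 13 mitochondrially encoded messages mt-Co1 and mt-Co3 were called, where 0.595% of all genes tested were called lower. Of the 13, 12 had a negative difference, and the median was -0.26. Together they took 1.85% ± 0.108 of CPM in Ado KO libraries and 2.17% ± 0.102 in control libraries (SD, n = 4 each; exact two-sided permutation p = 0.0286). The median difference of the 13 messages was -0.05 in untreated cells and -0.44 at 1 h, and mt-Co1 (-0.40) and mt-Co3 were also called lower at 1 h. Apart from Cox6a2 and Lars2, none of the 27 tested nuclear genes for cytochrome oxidase subunits and mitochondrial tRNA synthetases was called.

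Lars2, the mitochondrial leucyl-tRNA synthetase gene (chromosome 9, 123366927 to 123462666), was at 6.45, 6.24, 6.46 and 6.25 log2 CPM in Ado KO libraries, against 8.17, 7.98, 7.19 and 6.90 in control libraries. Every Ado KO library was below every control library, but control guide 1 was well above control guide 2. The difference was -1.21 ± 0.20 (log2, SE; limma adjusted p = 9.1e-04). Without control guide 1 it was -0.70 and not called (adjusted p = 0.0818). With all libraries it differed by -1.24 from the difference in untreated cells (limma adjusted p = 0.0272). Lars2 averaged 4.39 log2 CPM in Ado KO and 4.36 in control libraries untreated, and 4.21 and 4.42 at 1 h. At 6 h the means were 6.35 and 7.56, above the earlier ones in both genotypes. The same order, with control guide 1 highest, recurred in the most abundant small RNAs described next, and its part in the Lars2 difference was not tested.

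Small nuclear and nucleolar RNAs were 35 of the 79 genes called lower, and other small structural RNAs another 10. Of 237 tested snoRNA and scaRNA genes 31 were called lower and 0 higher, with a median log2 difference of -0.63. Of 72 snRNA genes 4 were called lower (median -0.83), and of 37 other small structural RNA genes 10 were called lower (median -0.92). Over all genes 0.595% were called lower and the median was 0.02. The 45 calls in these classes together were 16 without control library 1-1, 19 to 22 without control 1-2 or Ado KO 1-2, 2-1 or 2-2, 17 without control guide 1, 14 without Ado guide 1 and 8 without Ado guide 2, and 65 without control guide 2. These RNAs mostly lack a poly(A) tail and the library kit captures 3' ends of messages, so the values count whatever tags were assigned to these loci. Of the 50 small RNA genes called lower, 31 have a copy elsewhere in the annotation that is at least 90% identical over 80% of the length, and the count of tags for these is uncertain.

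The 2 RNAs with the sequences below are shown because they are named nucleolar RNAs that were lower in Ado KO cells. Snora30 has 1 copy of the kind counted above, which was tested and not called, so its count of tags is uncertain too. Snora20 has 0 such copies. The letters are those of GENCODE M21 (GRCm38), 5' to 3'. Snora30 (chr7:127527874-127528003, plus strand) and Snora20 (chr17:12922790-12922917, plus strand) are H/ACA RNAs, which guide the conversion of uridine to pseudouridine, and the ACA box that precedes the last 3 bases is in capitals.
Snora30: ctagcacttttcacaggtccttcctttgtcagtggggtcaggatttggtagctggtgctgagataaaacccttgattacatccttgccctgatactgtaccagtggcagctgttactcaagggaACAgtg
Snora20: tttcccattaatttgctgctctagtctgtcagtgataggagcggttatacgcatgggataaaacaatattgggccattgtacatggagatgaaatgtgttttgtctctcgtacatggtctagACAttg

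Snora30 was at 7.16, 6.92, 7.11 and 6.92 log2 CPM in Ado KO libraries, against 8.37, 8.11, 8.13 and 7.86 in control libraries. The groups did not overlap, at a difference of -1.09 ± 0.14 (log2, SE; limma adjusted p = 3.8e-05). In untreated cells the difference was 0.47 and at 1 h 0.09, and the change of -1.55 from untreated to 6 h was itself called (limma adjusted p = 2.3e-05). Snord13, a C/D RNA that acts in the processing of the small ribosomal subunit RNA, was at 5.41, 5.19, 5.18 and 5.10 log2 CPM in Ado KO libraries, against 6.45, 6.20, 6.42 and 6.31 in control libraries. This was a difference of -1.13 ± 0.20 (log2, SE; limma adjusted p = 0.00137), again without overlap, where untreated cells had 0.47. Snora20 was at 4.54, 3.78, 4.26 and 4.43 log2 CPM in Ado KO libraries and 5.44, 5.22, 5.33 and 5.10 in control libraries, with a difference of -1.02 ± 0.21 (limma adjusted p = 0.00875). At TNF 1 h Snora20 was called higher in Ado KO cells, by 0.87 (limma adjusted p = 0.032), as were Snora44 by 0.71 (0.0106) and Snora47 by 0.85 (0.0135). In untreated cells Snora44 was also called higher, by 0.67 (limma adjusted p = 0.0306).

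Of the 86 tested RNAs with snoRNA, scaRNA or Cajal body names, 10 were called lower and 0 higher. Beside the 3 above they were Snora62, Snora3, Snora44, Snora47, Snora81, Snord14c and Snord89, with log2 differences from -1.23 for Snora62 to -0.73 for Snora44. The U3 genes Rnu3b3 and Rnu3b1 guide the first cleavages of the ribosomal precursor. They were lower in Ado KO cells by 1.11 and 1.10 on the log2 scale, but they are near-identical copies with nearly the same values. Rnu3b3 was higher at 6 h than in untreated cells in both genotypes. Its means went from 4.83 to 7.96 log2 CPM in Ado KO libraries and from 4.81 to 9.07 in control libraries. Likewise Snord13 went from 3.78 to 5.22 and from 3.31 to 6.35. Rnu3b3 was at 8.09, 7.95, 7.95 and 7.86 log2 CPM in Ado KO libraries and 9.53, 9.43, 8.79 and 8.52 in control libraries. Rpph1, the RNA of ribonuclease P that trims the 5' ends of tRNAs, fell by 1.02 ± 0.21 on the log2 scale. Rn7sk, the 7SK RNA that holds the elongation kinase P-TEFb inactive, was at 11.44, 11.56, 11.12 and 11.23 log2 CPM in Ado KO libraries and 12.47, 12.58, 11.87 and 11.79 in control libraries (-0.84 ± 0.18; limma adjusted p = 0.0126). In Rnu3b3, Rpph1 and Rn7sk the control guide 1 libraries were the highest pair. The row named Mir1949 fell by 1.09 ± 0.18 on the log2 scale, but that symbol matches both a miRNA and a snoRNA gene in the annotation, so the value belongs to no single gene. The host genes Eif4a2, Snhg4, Snhg12 and Snhg17 were called lower too, at -0.75, -0.80, -0.60 and -0.97; small RNA genes lie within 3 of them on the same strand (Snora81 in Eif4a2, Snora44 in Snhg12, unnamed models in Snhg17), and tags of host and guest cannot be told apart here.

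**Figure D4:**
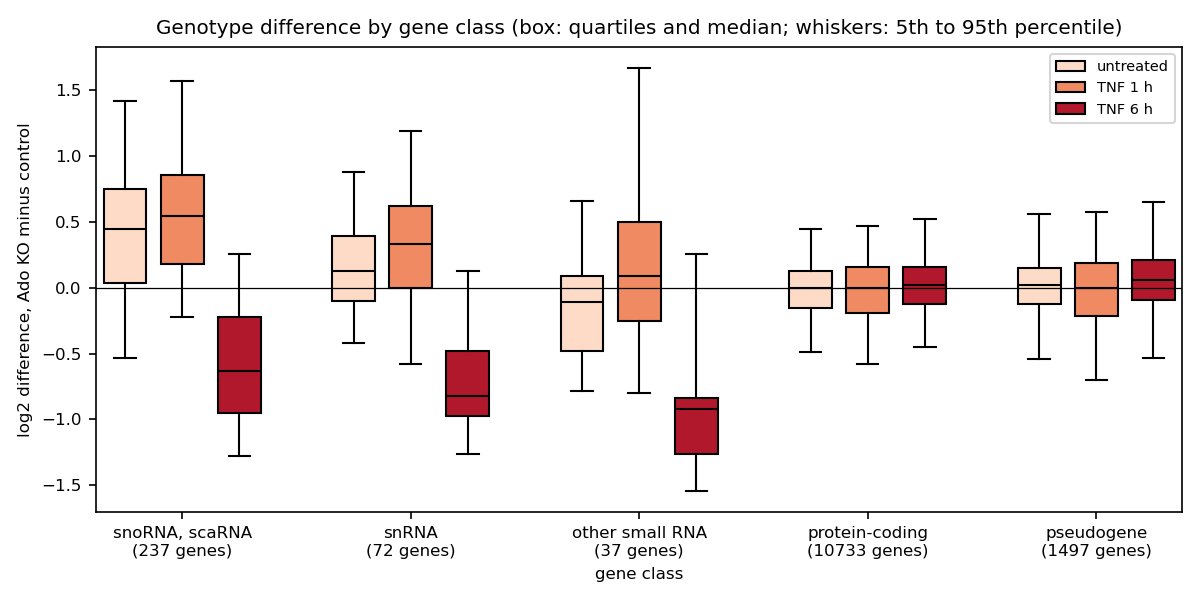
Log2 difference between Ado KO and control (vertical axis) by gene class and time, as boxes of the quartiles with the median and whiskers from the 5th to the 95th percentile of genes. The snoRNA and scaRNA median is 0.45 untreated, 0.55 at 1 h and -0.63 at 6 h, while protein-coding medians stay within 0.02 of 0.

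As a share of summed CPM, small structural RNAs (snoRNA, scaRNA, snRNA and the other small RNAs together, 505 genes) took 1.7%, 1.63%, 1.44% and 1.46% of Ado KO libraries 1-1, 1-2, 2-1 and 2-2, against 3.35%, 3.28%, 2.36% and 2.18% of control libraries at 6 h. The means were 1.56% ± 0.128 in Ado KO libraries and 2.79% ± 0.608 in control libraries (SD, n = 4 each; exact two-sided permutation p = 0.0286, adjusted 0.0416). The groups did not overlap, but control guide 1 stood further above control guide 2 than control guide 2 stood above the Ado KO libraries. All 8 shares at 6 h were above those of untreated cells, which were 0.284% to 0.388% in Ado KO and 0.264% to 0.305% in control libraries. At TNF 1 h they were 0.387% to 0.471% in Ado KO and 0.288% to 0.392% in control libraries. The labels give no preparation date, so a property of the 6 h libraries and an effect of 6 h of TNF cannot be told apart. Shares sum to a whole, and protein-coding genes took 61.6% ± 0.321 of CPM in Ado KO libraries and 60.1% ± 0.902 in control libraries (SD, n = 4 each). Histone messages without a poly(A) tail took 0.748% ± 0.0611 of CPM in Ado KO libraries and 0.766% ± 0.0434 in control libraries (SD, n = 4 each; exact permutation p = 0.771), and none of 64 was called by limma, with 0 higher and 2 lower at an unadjusted p under 0.05. Gene by gene, 52 of the 64 had a negative difference at 6 h, with a median of -0.15, against medians of 0.22 in untreated cells and 0.20 at 1 h. Over all 13272 genes tested 7151 had a positive difference at 6 h. In 5 of the 64 all Ado KO libraries lay below all control libraries, as they did in 523 of the 13272.

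**Figure D5:**
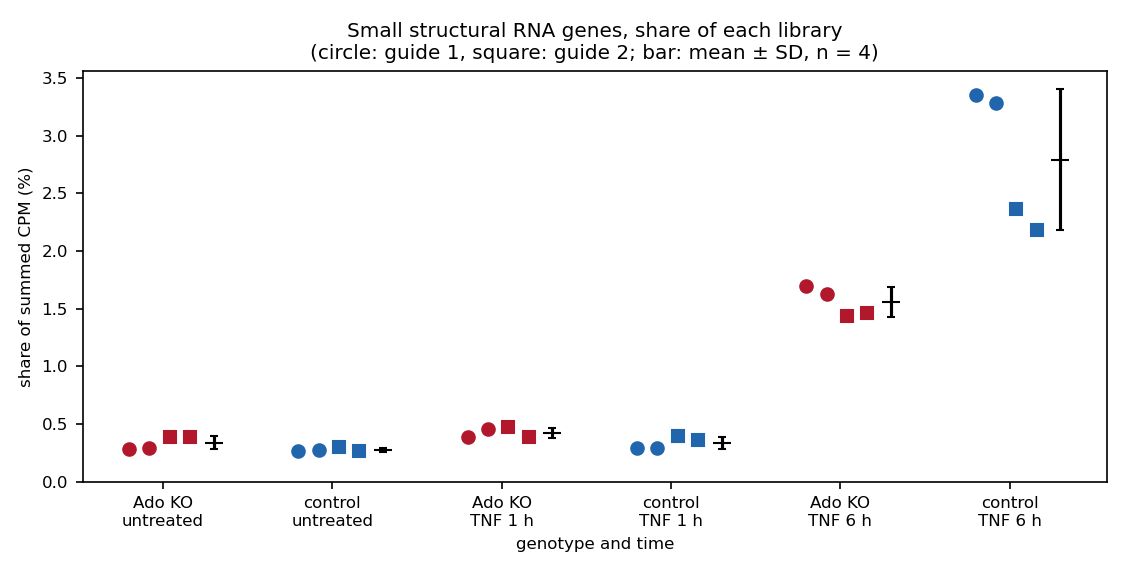
Share of summed CPM (%, vertical axis) assigned to 505 small structural RNA genes in each of the 24 libraries, by genotype and time; circles are guide 1, squares guide 2, black bars mean ± SD (n = 4). At 6 h the Ado KO libraries sit between 1.44% and 1.7% and the control libraries between 2.18% and 3.35%, all above the earlier times.

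The components of TNF signalling included no called gene at 6 h. By limma none of 15 genes of the TNF receptor complex and the linear ubiquitin ligase was called, with 2 higher and 0 lower at an unadjusted p under 0.05. These were Birc2, which encodes cIAP1, at 3.03 ± 0.20 log2 CPM in Ado KO libraries and 2.26 ± 0.35 in control libraries (SD, n = 4 each; difference 0.77 ± 0.30, SE, limma adjusted p = 0.285), and Rnf31, which encodes the ligase subunit HOIP, with a difference of 0.43 ± 0.18. None of the 10 IKK, TAK1 and NIK kinase genes, 11 NF-kB subunit and inhibitor genes or 12 ubiquitin feedback genes was called, and their medians were -0.03, 0.09 and 0.08. Rela, the activating NF-kB subunit, averaged 8.27 ± 0.09 log2 CPM in Ado KO libraries and 8.07 ± 0.16 in control libraries (SD, n = 4 each; adjusted p = 0.322). Of 26 cell death genes none was called, with 1 higher and 0 lower at an unadjusted p under 0.05. The 1 was Htra2, whose protein is released from mitochondria in apoptosis, with a difference of 0.29 ± 0.11 (adjusted p = 0.285). These results miss the threshold and do not show equal levels. In simulated data with normal noise and 1 guide correlation for all genes, the fit recovered 40% of genes changed 1.5-fold and 64.5% of those changed 2-fold.

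Further lists, some of them nearer to the enzyme, gave no calls either. Of 17 tested Arg/N-degron enzymes and RGS family genes none was called by limma, with 0 higher and 1 lower at an unadjusted p under 0.05. The 1 was Rgs2, a brake on G protein signalling, which averaged 1.26 ± 0.48 log2 CPM in Ado KO libraries and 1.89 ± 0.26 in control libraries (SD, n = 4 each; adjusted p = 0.414). Among 18 genes that handle cysteamine, taurine or coenzyme A none was called, with 1 higher and 2 lower at an unadjusted p under 0.05. Pank3, which begins coenzyme A synthesis, had the smallest p, at -0.47 ± 0.14 (adjusted p = 0.0948). MHC class I presentation had 0 calls among 25 genes, with 1 higher and 7 lower at an unadjusted p under 0.05 and a median of -0.17. H2-Q7, a non-classical class I gene, was at 7.38 ± 0.09 log2 CPM in Ado KO libraries and 7.68 ± 0.07 in control libraries (SD, n = 4 each; adjusted p = 0.0652). Calr, a chaperone of class I loading, differed by 0.21 ± 0.06 (adjusted p = 0.0844). In 12 genes of interferon receptors and JAKs there were 0 calls, with 0 higher and 1 lower at an unadjusted p under 0.05, which was Jak2 at -0.51 ± 0.24 (adjusted p = 0.403).

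Set beside the other times, the rises kept their sign more often than the falls. In untreated cells 33 genes (0.249%) were called between the genotypes, and at TNF 1 h 141 (1.06%). These comparisons share no libraries with the one at 6 h but share its guide populations. Of the 56 genes called higher at 6 h, 51 had a positive difference in untreated cells and 50 at 1 h, and 12 were also called higher at 1 h, among them Isg15, Irf9, Rtp4, Ifitm3 and Col5a1. Of the 79 called lower, 33 were negative in untreated cells and 33 at 1 h, and 18 were also called lower at 1 h. In untreated cells 2 of the 56 were also called higher and 4 of the 79 also called lower. The genotype difference at 6 h was called apart from that in untreated cells for 46 genes (0.347%), all lower at 6 h, and 33 of them were among the 79. Against TNF 1 h it was called apart for 61 genes (0.46%), 60 of them lower at 6 h, with 40 among the 79. The 1 gene higher was H2-Ke6, an alias of the dehydrogenase gene Hsd17b8, at a mean of 1.86 log2 CPM in Ado KO libraries and 0.38 in control libraries at 6 h. Of snoRNA and scaRNA genes 26 were called lower in the difference from untreated and 40 in that from 1 h. Among protein-coding genes normalised on their own, neither difference called any gene (0 and 0). No interferon-stimulated gene differed by this test: Isg15 had limma adjusted p = 0.788 against untreated.

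The calls also depended on single libraries. Of 50 called genes that the naming rule chose, 10 were called under every alternative run for them: Il1rl1, Cxcl10, Adra1b, Isg15, Cox6a2, Sox9, Plxna2, mt-Co1, Snora30 and the ambiguous Mir1949. Of the 8 interferon-stimulated genes 2, 4, 5 and 6 were called without control library 1-1, 1-2, 2-1 or 2-2, and 3, 1, 1 and 6 without Ado KO library 1-1, 1-2, 2-1 or 2-2; Isg15 was among them each time. Without control guide 1, control guide 2, Ado guide 1 or Ado guide 2 the number was 1, 5, 1 and 3, and without the variance trend it was 1. Ifit1 without control 1-2 was at 0.80 (adjusted p = 0.1), and Rsad2 without control 1-1 at 0.54 (adjusted p = 0.14). Of the 10 nucleolar RNAs 5 to 8 were called in these 8 fits, Snora30, Snord13, Snora44, Snora47 and Snora81 in each. Without control guide 1, Ado guide 1 or Ado guide 2 the number was 4, 5 and 2, and of those 5 RNAs Snora30 alone was called without each of the 4 guide populations in turn.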

How the data were processed

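The authors deposited 1 table of log2 CPM values per gene for 24 libraries, made from total RNA with a QuantSeq 3' mRNA kit, per the labels' protocols. Reads were handled with limma, Subread, featureCounts, HISAT2, cutadapt 1.7 and FastQC on GRCm38 (mm10), per the submitters' processing notes; other versions and the normalisation are not given in the sources used here. The values share 1 highest and 1 lowest value, as after quantile normalisation, and unlogged they sum to 998900 to 999014 per library. That normalisation is inferred from the values; it would make a shift in one RNA class move the others. The depth was estimated from the spacing of tied low values between 10 and 20 tags.

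Values were used as deposited. Genes at 0 log2 CPM or more in at least 4 of 24 libraries were kept. Limma 3.58.1 (R 4.3.3, statmod 1.5.0) fitted 6 group means with the 4 guide populations as a random block (correlation 0.0485) and a variance trend; tests were two-sided with Benjamini-Hochberg adjustment over 13272 genes and a threshold of 0.05. Interaction contrasts compared the difference at 6 h with that in untreated cells and at 1 h. Summed shares were compared by exact permutation of 4 against 4 libraries, without regard to guide population. Genes named by rule were Ado, up to 15 called genes with the greatest positive and 15 with the greatest negative difference that had both guide means on 1 side (unnamed models left out), the called members of 35 gene lists and 4 marker lists or else up to 2 with the smallest p, and 4 uncalled genes with the smallest p. The members and lists were chosen with earlier results of these data known. Classes and positions came from GENCODE M21, where 15217 symbols matched 1 gene, 41 several and 132 none. Copies of small RNAs were found with blastn 2.17.0. On simulated data the fit of this comparison made 6 false calls among 138. The simulated noise was normal, with the correlation of 0.0485 for every gene and guide effects that stayed the same at all times. These rates may therefore be too favourable for genes whose guides differ more, or differ at 6 h only. Alternatives were another scaling, filter, pseudocount (1 CPM), block, trend or weights, and leaving out each library or guide population. Figures used matplotlib 3.10.9 in Python 3.11.15. A few genes and 1 list that the rule names are not reported here.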

Additional observations from a re-analysis of the deposited data

Results flagged for a closer look

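Among the named genes and summed shares, 12 of 236 groups of 4 libraries held 1 library far from the other 3, where chance gives about 1 in 20 groups, or 11.8 here. In Ado KO cells these were Ado in library 2-1 at 5.00 log2 CPM, Calr in 1-2 at 8.77, Rgs2 in 1-1 at 0.55, Mt2 in 1-2 at 9.33, Trib3 in 1-2 at 4.09, Ccne1 in 2-1 at 4.13 and Actb in 1-2 at 11.87, and the share of mitochondrial tRNA and rRNA genes in 2-1 at 0.686% of CPM. In control cells they were Tnnc1 in library 2-1 at -1.04 log2 CPM, Lhx9 in 2-2 at -0.32, Itch in 1-1 at 2.52 and Tjp1 in 2-1 at 2.05. Of these genes only Tnnc1 and Lhx9 were called between the genotypes.

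The genotype difference at 6 h differed from that in untreated cells, by limma's interaction contrast, for Snora62 (-2.02 on the log2 scale), Snora3 (-1.81), Snord13 (-1.60), Snora47 (-1.57), Snora30 (-1.55), Snora20 (-1.53), Snord14c (-1.47), Snora44 (-1.41), Lars2 (-1.24) and Mir1949 (-1.14). It differed from that at TNF 1 h for Snora62 (-1.91), Snora20 (-1.89), Snora3 (-1.86), Snord14c (-1.81), Snora47 (-1.79), Mir1949 (-1.56), Snord13 (-1.52), Snora44 (-1.44), Rnu3b3 (-1.23), Rnu3b1 (-1.19), Snora30 (-1.18), Snora81 (-0.95) and H2-Ke6 (1.90). H2-Ke6 is the 1 of these genes in which the Ado KO libraries were the higher at 6 h, and the part that the small RNA share of the 6 h libraries has in the others was not tested.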

How the results depend on the processing

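The 135 calls were 56 higher and 79 lower. The counts were 32 and 85 with libraries centred on their median difference, 25 and 14 with protein-coding genes normalised again, 73 and 127 with log2(CPM + 1), 99 and 196 with the 8 libraries alone, 164 and 160 with guide populations as fixed terms, 19 and 39 without the trend, 103 and 113 with library weights, and 17 to 60 and 40 to 79 with 1 library left out. The lowest of these were without Ado KO 2-1 (17 higher) and without control 1-1 (40 lower). Without control guide 1, control guide 2, Ado guide 1 or Ado guide 2 there were 34, 187, 7 and 9 higher and 66, 135, 30 and 22 lower. The cause of these shifts was not tested. Replicate numbers shared between guide populations did not pair the libraries (correlations of -0.0493 to 0.0659), and the fit with a replicate block called 48 higher and 73 lower.

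Of the calls in the difference from untreated (0 higher, 46 lower), fixed guide terms gave 2 higher and leaving out control guide 2 gave 9; the lower calls were 0 among protein-coding genes normalised again, 30 without the trend, 7 without control guide 1 and 1 without Ado guide 2. With 1 library left out they ranged over 0 to 2 higher and 27 to 51 lower. In the difference from 1 h (1 higher, 60 lower) the higher calls were 5 with fixed guide terms, 4 without the trend and 7 without control guide 2; the lower calls were 0 among protein-coding genes, 27 without the trend, 10 without control guide 1, 29 without Ado guide 1 and 21 without Ado guide 2. With 1 library left out they ranged over 0 to 3 higher and 30 to 74 lower. Over 1179 values of 50 called named genes under 24 settings, 353 missed the threshold and 0 changed sign. Of 1240 values of 52 uncalled ones 82 passed it and 3 changed sign: Tjp1 -0.04 without control 2-1 (-0.04 to 0.42 with 1 library left out), Cd68 -0.08 without Ado guide 1 and Nkg7 -0.13 without Ado guide 2.

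The 505 small structural RNA genes have no stated depth and many share tags with copies. Their median difference at 6 h over the 346 tested was -0.73, and -0.52 without control guide 1.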

Other observations

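Several other programmes held no called gene. Of 33 tested NRF2, glutathione and redox genes, 6 were higher and 1 lower at an unadjusted p under 0.05; Prdx6, a peroxiredoxin with phospholipase activity, was at 8.83 ± 0.08 log2 CPM in Ado KO libraries and 8.60 ± 0.09 in control libraries (SD, n = 4 each; limma adjusted p = 0.0617). Of 36 sterol and fatty acid synthesis genes, 1 was higher and 2 lower on that unadjusted scale, with Nsdhl, an enzyme of cholesterol synthesis, at 2.35 ± 0.28 log2 CPM in Ado KO libraries and 3.16 ± 0.30 in control libraries (adjusted p = 0.0617). S phase and mitosis genes gave 4 higher and 1 lower of 40: Ccne1, which encodes the cyclin of the entry into S phase, differed by 0.70 ± 0.18 (log2, SE; adjusted p = 0.0598), and Top2a, the topoisomerase of mitotic chromosomes, by -0.41 ± 0.12 (adjusted p = 0.113). The immediate-early genes of the AP-1, EGR, IER and KLF families gave 0 higher and 3 lower of 28, with Egr1 at 5.57 ± 0.23 log2 CPM in Ado KO libraries and 5.99 ± 0.20 in control libraries (adjusted p = 0.203). BMP and TGF-beta targets gave 3 higher and 0 lower of 20, with Id3, an inhibitor of basic helix-loop-helix factors, at 0.36 ± 0.10 (adjusted p = 0.0895).

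Also without a call, at an unadjusted p under 0.05, were p53 targets (3 higher and 1 lower of 28), ATF4 and unfolded protein response genes (1 and 2 of 37), amino acid transporters (3 and 0 of 15), actin and SRF target genes (3 and 1 of 23), circadian clock genes (0 and 0 of 16) and housekeeping genes (3 and 1 of 19). Lists with 1 called gene were ERK output and MAP kinase phosphatases (Etv1, of 22) and mesenchymal genes (S100a4, of 19), and 11 nuclear long RNAs and 7SK partners held 2 called lower, Rn7sk and Rpph1. The uncalled genes with the smallest p over all were Max, the partner of MYC (0.32 ± 0.08; limma adjusted p = 0.0503), Rps9 (0.31 ± 0.08; 0.0503), Isy1, a splicing factor gene (0.49 ± 0.13; 0.0522), and Snhg20 (-0.46 ± 0.12; 0.0522).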
